A study of Mus musculus with 6 samples.

Results

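Transcripts of striated muscle were measured in mouse aorta through 35 genes, 20 of skeletal muscle fibres and 15 of heart muscle. Each gene was represented by the probe set whose platform annotation names that gene alone, and 35 of 35 had exactly 1 such probe set, out of 19752 genes measured in all. The members are a list of gene names by tissue, drawn up with earlier results of these data known, and all 35 entered every count, with no filter on low levels.

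The study compared aortas of 3 mice lacking Apoe (genotype apoe-/-, ApoE-KO) with aortas of 3 mice lacking both Apoe and Adora1 (apoe-/- adora1-/-, DKO), the gene of the adenosine A1 receptor. All 6 mice were on the C57BL/6 strain and 20 weeks old, and all lacked Apoe, so no mouse with an intact Apoe gene was among them. Each group has replicates numbered 1 to 3, and no label says what a number shares or how much tissue around the vessel was taken. The series text calls the comparison group Adora1 knockout, and the sample labels, which name Apoe, were followed.

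Striated muscle contracts through sarcomeres, in which thick filaments of myosin slide along thin filaments of actin, troponin and tropomyosin held between Z-discs. Calcium released from the sarcoplasmic reticulum by ryanodine receptors starts the contraction, and calcium pumps end it. Skeletal muscle and heart use largely different genes for these parts, while the artery wall contracts with a smooth muscle set that has no sarcomeres. The aorta runs beside the heart, the lungs and the muscles along the spine and diaphragm.

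The 250 bases before the start of 4 members are shown because 3 of them had the widest ranges over the arrays and the highest levels in both replicate 3 arrays, and the fourth, Casq1, went the other way. The sequences are from RefSeq, build GRCm38.p6, written 5′ to 3′ on the gene's strand: Myh4 at chr11:67237562-67237811 (plus strand), Atp2a1 at chr7:126463074-126463323 (minus strand), Actc1 at chr2:114052876-114053125 (minus strand) and Casq1 at chr1:172219896-172220145 (minus strand). Capitals mark matches, on either strand, to the E-box CANNTG, the MEF2 site, the CArG box or TATAAA.
Myh4: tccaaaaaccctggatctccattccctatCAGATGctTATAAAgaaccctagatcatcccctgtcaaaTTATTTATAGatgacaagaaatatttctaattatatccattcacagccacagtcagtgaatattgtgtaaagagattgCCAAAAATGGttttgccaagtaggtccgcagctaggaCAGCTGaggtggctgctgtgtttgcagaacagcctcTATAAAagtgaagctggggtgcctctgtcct
Atp2a1: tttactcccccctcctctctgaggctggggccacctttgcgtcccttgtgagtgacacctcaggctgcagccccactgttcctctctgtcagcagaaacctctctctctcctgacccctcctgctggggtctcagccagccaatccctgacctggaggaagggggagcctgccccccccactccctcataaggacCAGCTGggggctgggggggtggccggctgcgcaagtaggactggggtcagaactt
Actc1: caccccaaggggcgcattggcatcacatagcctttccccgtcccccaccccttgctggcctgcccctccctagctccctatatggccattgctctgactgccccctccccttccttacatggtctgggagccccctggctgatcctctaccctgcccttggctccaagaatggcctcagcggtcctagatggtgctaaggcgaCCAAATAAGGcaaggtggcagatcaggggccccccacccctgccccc
Casq1: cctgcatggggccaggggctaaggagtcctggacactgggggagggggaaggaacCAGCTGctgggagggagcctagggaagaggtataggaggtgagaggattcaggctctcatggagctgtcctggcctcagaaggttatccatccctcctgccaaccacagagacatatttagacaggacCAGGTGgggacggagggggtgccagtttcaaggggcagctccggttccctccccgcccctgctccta

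The Myh4 stretch held 2 E-boxes, 1 MEF2 site, 1 CArG box and 3 TATAAA matches, 1 of which lay 31 bases before the start and another within the MEF2 site. Actc1 had a CArG box that began 47 bases before its start, Atp2a1 had 1 E-box and Casq1 had 2. Of 30 members with an entry in the promoter table, 25 held an E-box, where 66.2% of the 32851 entries searched did. A MEF2 site was held by 6 (2.92% of entries), a CArG box by 4 (1.47%) and TATAAA by 6 (12.4%). A member counted if any of its entries matched, while the shares are of entries. Entries of 1 chromosome, which holds no member, were left out of the search. The 4 with a CArG box were Acta1, Actc1, Myh4 and Myl7, and the 6 with a MEF2 site were Mybpc3, Myh1, Myh4, Myoz2, Pvalb and Ttn. These are matches of letters in a window and were not measured as binding.

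The values are log2 intensities of 25254 probe sets, so a difference of 1 is a factor of 2, and levels of different genes are not compared because each probe set has its own brightness. The labelled tissue was checked with arterial smooth muscle genes: Acta2, the smooth muscle actin, read 13.97 to 14.06 and Myh11, the smooth muscle myosin, 13.23 to 13.61 over the 6 arrays. Both replicate 3 arrays stood apart in lung epithelium genes. Scgb1a1, a secreted protein of airway club cells, read 13.70 in ApoE-KO replicate 3 and 12.93 in DKO replicate 3 against 5.40 to 5.97 in the other 4 arrays, and Sftpc, a surfactant protein, read 12.32 and 11.92 against 6.21 to 6.45. For the members, the class means of DKO minus ApoE-KO and the counts passing the number term are therefore given with and without them. Other results are given without them only for some genes.

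Skeletal muscle genes were highest in the replicate 3 arrays of both genotypes. The mean of the 20 genes, each taken relative to its own mean over the arrays, stood at 0.50 in ApoE-KO replicate 3 and 0.28 in DKO replicate 3, against -0.23 to -0.14 in the other 4. In 16 of the 20 the replicate 3 array was the highest of its group in both groups, where 13.5% of all probe sets had this order. A limma F test of the replicate number, with genotype in the model, passed 13 of the 20 at an adjusted p under 0.05, where 12.2% of all probe sets passed, and 12 of the 13 had both replicate 3 arrays highest.

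Among the thick filament genes, Myh4, the fastest myosin heavy chain of limb and trunk muscle, read 6.20, 6.44 and 8.38 in ApoE-KO replicates 1 to 3 and 6.22, 6.26 and 7.64 in DKO. Only the replicate 3 arrays were high, 4.15-fold over the mean of the other 2 in ApoE-KO and 2.63-fold in DKO (limma, adjusted p of the number term 0.00668). Detection calls were not used here, so the low arrays of this and other genes may be at background, and such folds may then understate the difference. Myh2, the heavy chain of fast oxidative fibres, read 6.77, 6.62 and 7.18 in ApoE-KO against 6.62, 6.61 and 6.99 in DKO, a narrower range with the same order at the top (adjusted p = 0.0373). Myh1, the heavy chain of intermediate fast fibres, read 6.32, 6.22 and 6.64 against 6.25, 5.96 and 6.41 and did not pass (adjusted p = 0.0626). Myh1, Myh2 and Myh4 lie in one gene cluster on chromosome 11 and encode closely related proteins, and their probe sequences were not used here, so the split of signal among the 3 is uncertain. The light chain genes Mylpf and Myl1 and the myosin-binding protein genes Mybpc1 and Mybpc2 had ranges of 0.31 to 0.60 and did not pass. Mybpc1, which binds myosin in slow fibres, read 7.03, 6.87 and 7.12 against 6.81, 6.97 and 6.87, with no order by number.

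The thin filament genes gave the most even picture, with both replicate 3 arrays highest in 5 of 5. Acta1, the skeletal actin, read 8.61, 8.78 and 9.57 in ApoE-KO against 8.48, 8.51 and 9.25 in DKO (adjusted p of the number term 0.00676). The replicate 3 arrays were 1.83-fold and 1.68-fold above the mean of the other 2 in their groups. The fast troponin genes Tnnt3, which anchors the troponin complex to tropomyosin, and Tnnc2, its calcium sensor, passed (adjusted p = 0.0209 and 0.0218), as did Neb, which encodes nebulin along the thin filament (0.0136). Tnnt3 read 8.25, 8.41 and 9.15 against 8.25, 8.16 and 8.70, Tnnc2 read 7.47, 7.53 and 8.35 against 7.67, 7.51 and 8.09, and Neb read 6.92, 6.97 and 7.68 against 6.82, 6.87 and 7.39. The inhibitory subunit gene Tnni2, at 7.89 to 8.27, did not (0.256).

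Of the genes of the Z-disc and of elastic titin, Ttn, which spans from Z-disc to mid-sarcomere in skeletal muscle and heart alike, read 6.75, 7.01 and 8.02 in ApoE-KO against 6.86, 6.86 and 7.68 in DKO (adjusted p of the number term 0.00940). Actn3, the alpha-actinin of fast fibres, read 7.66, 7.63 and 8.52 against 7.80, 7.62 and 8.05 (adjusted p = 0.0495, and 0.057 after renewed quantile normalization). Ckm, the creatine kinase that buffers ATP in skeletal muscle and heart, read 8.03, 8.15 and 9.21 in ApoE-KO against 8.16, 8.01 and 9.08 in DKO (adjusted p = 0.00451). In these 3 genes each replicate 3 array lay above every array of the other numbers.

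**Figure D1:**
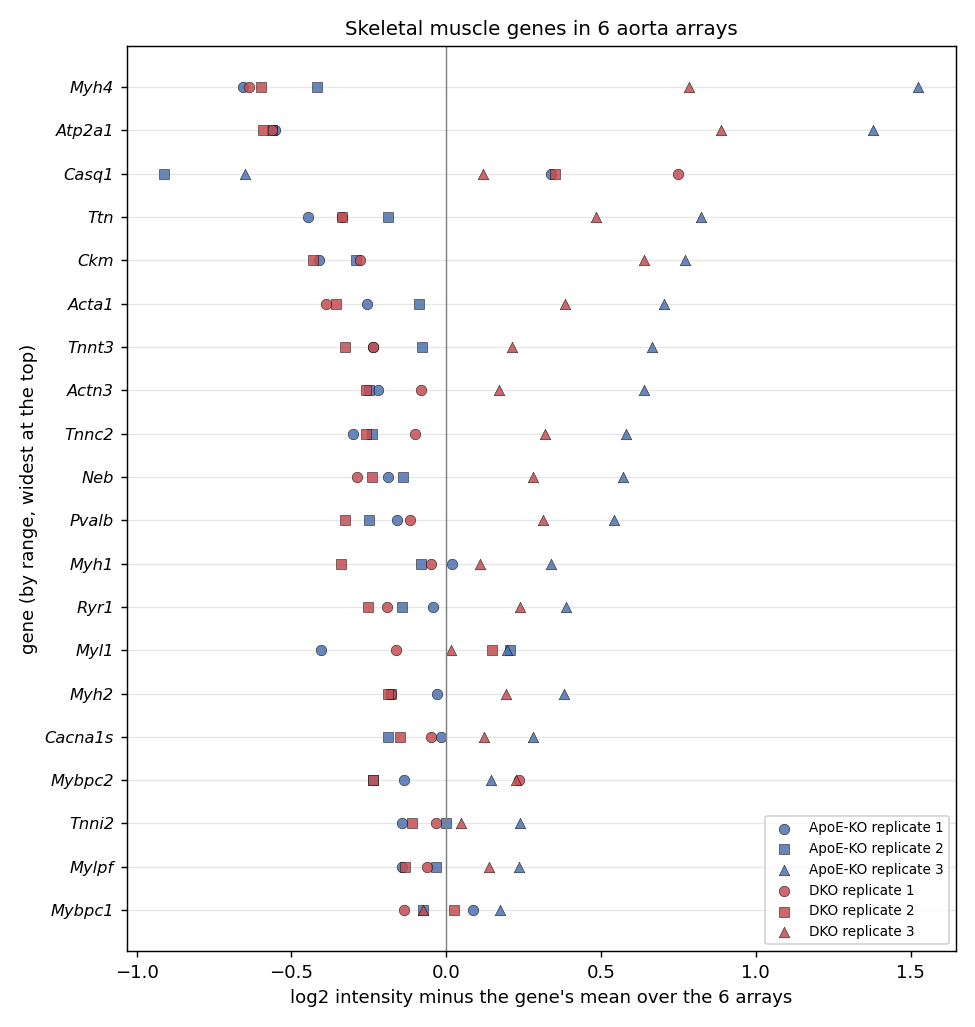
Log2 intensity of 20 skeletal muscle genes in each of the 6 aorta arrays, each gene minus its mean over the arrays; colours are genotypes and symbols replicate numbers. Both triangles (replicate 3) lie to the right of the other arrays of their genotype in 16 of the 20 genes, and in Casq1 they do not.

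The calcium handling genes held the clearest case and the exception. Atp2a1, the calcium pump of fast fibres, read 7.62, 7.61 and 9.55 in ApoE-KO against 7.61, 7.58 and 9.06 in DKO. The 4 arrays of numbers 1 and 2 lay at 7.58 to 7.62, while the replicate 3 arrays were 3.83-fold and 2.76-fold higher (limma, adjusted p of the number term 0.00386). Pvalb, the calcium-binding parvalbumin of fast fibres, and Ryr1, the skeletal calcium release channel, passed in the same order (adjusted p = 0.0159 and 0.0214). Pvalb read 6.74, 6.65 and 7.44 against 6.78, 6.57 and 7.21, and Ryr1 read 7.29, 7.19 and 7.72 against 7.14, 7.08 and 7.57. Cacna1s, the voltage sensor that opens Ryr1, read 6.75 to 7.22 and did not pass (0.0845).

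Casq1, the calsequestrin that stores calcium in skeletal muscle, read 10.39, 9.14 and 9.40 in ApoE-KO against 10.80, 10.40 and 10.17 in DKO. It passed the number term (adjusted p = 0.0383) with the replicate 1 array highest in both groups, and its replicate 3 arrays were below the mean of the other 2, at 0.775 and 0.742 of it. This call was lost without any 1 ApoE-KO array and without both replicate 1 arrays (adjusted p = 0.976). Without Casq1 the skeletal mean stood at 0.56 in ApoE-KO replicate 3 and 0.29 in DKO replicate 3, against -0.26 to -0.17 elsewhere.

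The heart muscle genes were less alike. Their mean stood at -0.19, 0.03 and 0.27 in ApoE-KO against -0.12, -0.13 and 0.13 in DKO. In 9 of the 15 the replicate 3 array was highest in both groups (13.5% of all probe sets), but 1 passed the number term (12.2% of all). That gene was Actc1, the cardiac actin, which smooth muscle can also make. It read 8.64, 9.65 and 10.66 in ApoE-KO against 8.99, 9.10 and 10.06 in DKO (limma, adjusted p = 0.0176). Its protein is closely related to that of Acta1, and neither gene nor probe sequences were compared here, so signal shared between these actins was not tested. The call for Actc1 was lost without ApoE-KO replicate 2, without DKO replicate 2 and without both replicate 3 arrays. Without DKO replicate 1, 7 of the 15 cardiac genes passed (11.8% of all probe sets).

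Of the 5 cardiac thick filament genes, 3 were lowest in ApoE-KO replicate 1. Myl7, the atrial regulatory light chain, read 6.97, 8.38 and 8.60 in ApoE-KO against 7.67, 7.99 and 8.21 in DKO. Myl4, the atrial essential light chain, read 8.42, 9.12 and 9.27 against 8.77, 8.71 and 9.19. Myh6, the alpha myosin heavy chain of the adult mouse heart, read 6.94, 7.72 and 8.16 against 7.37, 7.40 and 7.61. In all 3, the ApoE-KO arrays spread wider than the DKO arrays and enclosed them, and none passed the number term (adjusted p = 0.0621, 0.0956 and 0.131).

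Tnni3, the inhibitory troponin of the adult heart, had the same lowest array, with 7.93, 8.66 and 8.73 in ApoE-KO against 8.04, 8.10 and 8.52 in DKO. Tnnt2, the cardiac troponin T, differed from these: it read 9.52, 9.68 and 9.93 in ApoE-KO against 8.83, 9.58 and 9.83 in DKO, so DKO replicate 1 was lowest. The natriuretic hormone genes Nppa, made mainly by the atria, and Nppb spanned 7.16 to 7.46 and 6.93 to 7.23. Myh7, the heavy chain of slow fibres and of the stressed mouse ventricle, read 7.46, 7.43 and 7.63 against 7.37, 7.28 and 7.42, and Mybpc3, the cardiac myosin-binding protein, 7.41, 7.49 and 7.41 against 7.35, 7.37 and 7.25, so every DKO array lay below every ApoE-KO array in both. These 4 genes moved by at most 0.35 over the arrays, and the median range of all probe sets was also 0.35.

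The Z-disc genes of the cardiac set showed no common order. Tcap, the titin cap protein of heart and skeletal muscle, read 9.36, 8.40 and 8.52 in ApoE-KO against 9.14, 8.69 and 8.98 in DKO, with replicate 1 highest in both groups. Myoz2, the calsarcin of heart and slow fibres, read 8.56, 8.26 and 8.44 against 8.77, 8.10 and 8.41, also with replicate 1 highest. Csrp3, the muscle LIM protein, and Actn2, the alpha-actinin of heart and of all skeletal fibres, had ranges of 0.32 and 0.35. Csrp3 read 7.80, 7.73 and 7.95 against 7.71, 7.63 and 7.81. Ryr2, the cardiac calcium release channel, which vascular smooth muscle also carries, read 9.49, 9.31 and 9.80 against 9.77, 9.57 and 9.73.

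**Figure D2:**
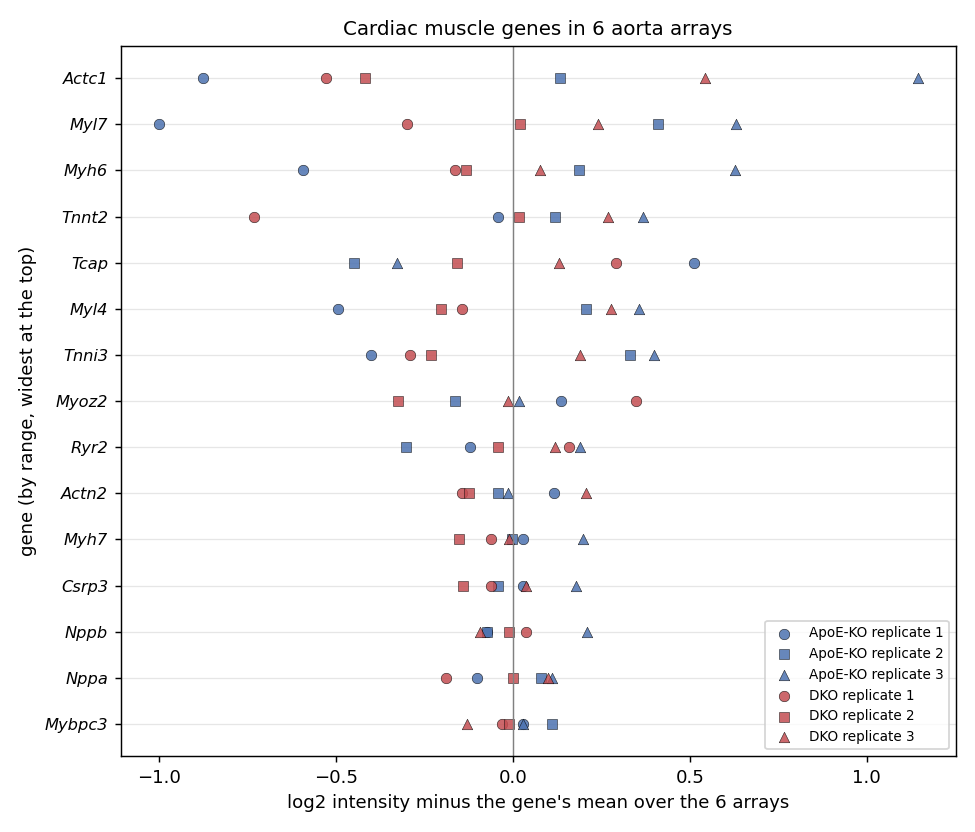
Log2 intensity of 15 heart muscle genes in each of the 6 aorta arrays, each gene minus its mean over the arrays; colours are genotypes and symbols replicate numbers. ApoE-KO replicate 1 is lowest in Actc1, Myl7, Myh6, Myl4 and Tnni3, while Tnnt2 is lowest in DKO replicate 1 and the genes at the bottom hardly vary.

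Over both classes ApoE-KO replicate 3 was the highest array in 28 of 35 genes, 17 skeletal and 11 cardiac. In 10 of 35 the range over the arrays was at least 1, where 3.73% of all probe sets had such a range. Without both replicate 3 arrays, the number term passed 2 of 20 skeletal and 2 of 15 cardiac genes, where 10.1% of all probe sets passed. Leaving out ApoE-KO replicate 2, ApoE-KO replicate 3 or DKO replicate 2 alone left 5, 5 and 6 skeletal genes (1.86%, 7.75% and 2.55% of all probe sets). The count of 13 thus did not hold without any 1 of these arrays, while the share of all probe sets also fell, from 12.2%. Above the 40th percentile of the mean level, 7 skeletal and 5 cardiac genes of the 19 fitted passed (22.4% of all).

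None of the 35 genes passed the test of DKO against ApoE-KO over all probe sets. With limma unpaired, 0 of 35 passed at an adjusted p under 0.05 (0.00% of all probe sets), with Casq1 at the smallest value (0.861), and 1 of 35 had an unadjusted p under 0.05 (5.62% of all). With the replicate number as a block, 0 of 35 passed (0.174% of all), again with Casq1 smallest (0.0827), and 4 of 35 had an unadjusted p under 0.05 (16.2% of all). The 4 were Acta1, Tnnt3 and Tnnt2, lower in DKO (6.10% of all probe sets), and Casq1, higher (10.1%). The groups did not overlap in 2 of 35 genes, Myh7 and Mybpc3, against 12.0% of all probe sets. With 3 mice a group, a miss of the threshold does not show that levels were equal.

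The differences were small and mostly below 0. The skeletal mean was -0.06 ± 0.14 in DKO minus ApoE-KO (SD over 3 replicate numbers), with 0.05, -0.02 and -0.22 at numbers 1, 2 and 3, and -0.11 ± 0.15 without Casq1. The cardiac mean was -0.08 ± 0.13, with 0.07, -0.16 and -0.14. Of the 20 skeletal genes 18 had a difference below 0, with a class median of -0.12, and of the 15 cardiac genes 12, with a median of -0.06, where 50.7% of all probe sets lay below 0. Neither mean was larger than its spread over the replicate numbers. Without both replicate 3 arrays the means were 0.01 and -0.05. Without ApoE-KO replicate 3 alone the skeletal mean turned to 0.17, with 2 of 20 genes below 0, and the cardiac mean to 0.04.

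At replicate number 3 itself, 18 of 20 skeletal and 13 of 15 cardiac genes were lower in DKO. This sets 1 array against 1 array, so the genes are not separate observations of a genotype difference. ApoE-KO replicate 3 was the highest of all arrays in 28 of the 35, and the share of all probe sets lower at this number was not computed. Myh4 differed by 0.02, -0.18 and -0.73 at numbers 1 to 3 (mean -0.30, 95% interval -1.77 to 1.18 unpaired), Atp2a1 by -0.01, -0.02 and -0.49 (mean -0.18, -1.61 to 1.26) and Actn3 by 0.14, -0.02 and -0.47 (mean -0.12, -0.69 to 0.46). In these 3 genes the number 3 difference was the widest of the 3. Lung epithelium genes went the same way at that number, with list differences of -0.15, -0.06 and -0.56, and so did the sympathetic nerve genes (-0.23, -0.21 and -1.10). White fat genes were lower in DKO in 8 of 9 (list mean -0.49 ± 0.06, SD over 3 numbers) and mesothelium genes higher in 8 of 8 (0.70 ± 0.30). With the block 3 of 9 and 3 of 8 passed (0.174% of all probe sets), and unpaired 0 of either list (0.00%). The part of these lists in the muscle result was not tested, and in bulk tissue fewer cells of a type and less RNA per cell cannot be told apart.

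Lower in DKO at all 3 replicate numbers were 11 of 35 genes (19.1% of all probe sets), 6 skeletal and 5 cardiac. Acta1 led them in the paired fit with -0.12, -0.27 and -0.32 (mean -0.24, 95% interval -0.40 to -0.08 with the block, adjusted p = 0.180, and -0.94 to 0.47 unpaired, adjusted p = 0.935). Its mean turned to 0.05 without ApoE-KO replicate 3 alone and was -0.49 without DKO replicate 3 alone. Without both replicate 3 arrays it was -0.20. Tnnt2 stood at -0.69, -0.10 and -0.10 (mean -0.29, 95% interval -0.58 to -0.01 with the block, adjusted p = 0.297, and -0.89 to 0.30 unpaired, adjusted p = 0.902). Its mean was -0.00 without DKO replicate 1 alone and -0.10 without both replicate 1 arrays. Tnnt2 and Cacna1s lie on chromosome 1 within 10 Mb of Adora1 in the RefSeq table, with 28 and 33 protein-coding genes starting between.

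Higher at all 3 numbers was 1 of 35, Casq1 (21.2% of all probe sets). Its ApoE-KO mean was 9.64 ± 0.66 (SD, n = 3) and its DKO mean 10.46 ± 0.32 (SD, n = 3), with differences of 0.41, 1.26 and 0.77. The mean difference of 0.81 had a 95% interval of 0.05 to 1.58 unpaired (limma, adjusted p = 0.861) and of 0.47 to 1.16 with the block (adjusted p = 0.0827). The lowest DKO array, at 10.17, lay below the highest ApoE-KO array, at 10.39. Casq1 was highest in DKO replicate 1, as were 6 of 12 arterial smooth muscle genes and 8 of 22 further fast skeletal genes. It was lowest in ApoE-KO replicate 2, as were 6 and 7 of these. The smooth muscle gene Lmod1 had both extremes in the same arrays, with differences of 0.17, 0.33 and 0.29. Shares of all probe sets for these orders were not computed, and which cells gave the Casq1 signal was not tested. Without both replicate 1 arrays Casq1 passed with the block (1.01, adjusted p = 0.00843), as did Actc1 as lower in DKO (-0.57, adjusted p = 0.0122), in a fit that passed 415 probe sets in all.

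DKO was higher at number 1 and lower at numbers 2 and 3 in the cardiac genes Actc1, Myh6, Myl4, Myl7, Myoz2 and Tnni3. This order was not particular to cardiac genes. The skeletal genes Ckm (0.12, -0.14 and -0.13), Tnnc2 (0.20, -0.02 and -0.26), Ttn (0.10, -0.15 and -0.34), Myh4, Tnni2, Mylpf, Myl1, Actn3 and Pvalb had it too. The share of all probe sets with this order was not computed. Myl7 differed by 0.70, -0.38 and -0.40, Myh6 by 0.42, -0.32 and -0.55, Myl4 by 0.35, -0.41 and -0.08, and Actc1 by 0.35, -0.55 and -0.60. The means of these 4 lay between -0.26 and -0.03, with intervals that all include 0. Nppa, also of atria, was lower in DKO at each number, with differences of -0.09, -0.08 and -0.01.

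**Figure D3:**
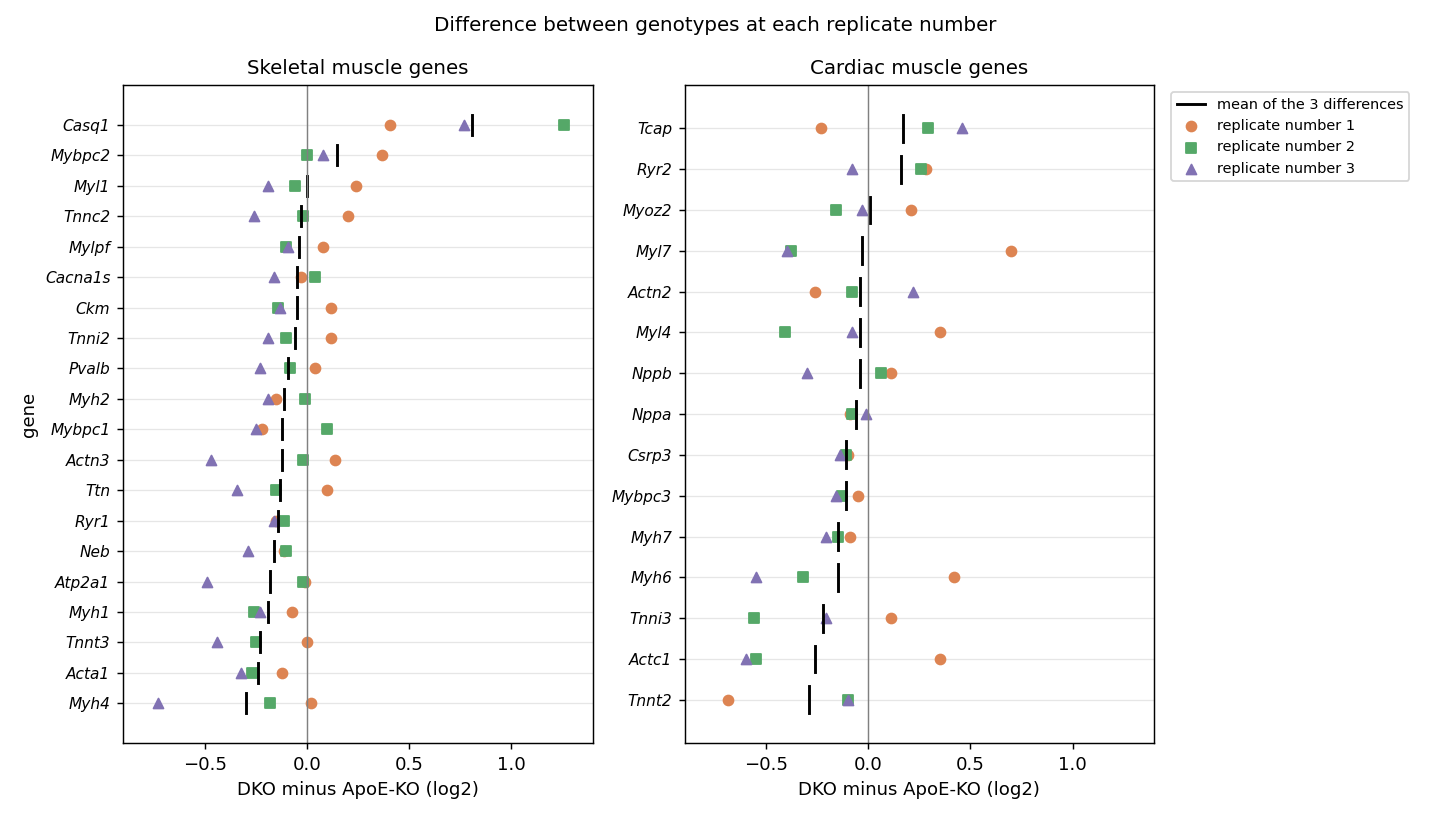
DKO minus ApoE-KO in log2 units for each muscle gene at replicate numbers 1, 2 and 3 (symbols) with their mean (black bar); genes are ordered by the mean within each class. The class means are -0.06 and -0.08, and Casq1 lies to the right at all 3 numbers. Myl7, Myh6, Myl4 and Actc1 change side between number 1 and the others, as do skeletal genes such as Ckm, Tnnc2 and Ttn.

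Other genes of striated muscle were taken from 3 further lists. Of 22 further genes of fast skeletal muscle, 3 passed the number term (12.2% of all probe sets), namely Cox6a2, a muscle subunit of cytochrome oxidase, Trdn, the calcium release protein triadin, and Asb5, a muscle ubiquitin ligase adaptor. The replicate 3 arrays were highest in both groups in 3 of the 22 (13.5% of all probe sets): Eno3, the muscle enolase, Cox6a2 and Trdn. Cox6a2 read 8.49, 8.61 and 9.01 in ApoE-KO against 8.28, 8.44 and 8.65 in DKO. The list's mean moved between -0.06 and 0.08 over the 6 arrays, with 11 genes lower and 11 higher in DKO, and its median range was 0.39. Klhl41, a sarcomere assembly protein, had the widest range of the list (1.11), with DKO replicate 1 highest at 8.99.

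Of 26 further genes of slow skeletal or ventricular muscle, 4 passed the number term (15.4%, against 12.2% of all probe sets): Atp2a2, Ankrd1, Hrc and Gja5. Atp2a2, Ankrd1 and Hrc were highest in the replicate 1 arrays of both groups and Gja5 in the replicate 2 arrays. Both replicate 3 arrays were highest in 5 of the 26 (13.5% of all probe sets): Tnnc1, Mb, Myom1, Myot and Ckmt2. The median range of this list was 0.48, against 0.35 for all probe sets, and its mean moved between -0.05 and 0.06. The ventricular and slow fibre light chain genes Myl2 and Myl3 had ranges of 0.23 and 0.18, and Mb, the oxygen-storing myoglobin, read 7.65, 7.88 and 8.33 in ApoE-KO against 7.75, 7.90 and 7.99 in DKO. Of 7 further atrial genes, Sln, the regulator of the calcium pump in atria, stayed within 0.18, and Tbx5, a transcription factor of heart and lung development, read 6.40, 6.86 and 8.08 in ApoE-KO against 6.72, 7.24 and 7.56 in DKO. Tbx5 and Gja5 were the 2 of these that passed the number term (12.2% of all probe sets), and Gja5 is in both this list and the slow and ventricular one. The mean of the atrial list ran from -0.14 to 0.15. In the DKO comparison 0 of the genes in these 3 lists passed, unpaired or with the block.

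Of 18 muscle transcription factors measured, 1 passed in DKO with the block (0.174% of all probe sets). This was Tbx20, of heart development, at 0.88 higher (limma with the block, adjusted p = 0.0294). It did not pass unpaired (limma, adjusted p = 0.368). The myogenic factors of skeletal muscle Myod1, Myog, Myf5 and Myf6 had ranges of 0.30, 0.36, 0.23 and 0.41. Srf, which binds CArG boxes, and Tbx5 were the 2 of 18 that passed the number term (12.2% of all probe sets). Srf was highest in the replicate 1 arrays, at 10.95 and 10.98 against 10.43 to 10.63 in the others.

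Lists of neighbouring tissues placed the muscle order among them. Of 15 lung epithelium genes, 12 passed the number term and 14 had both replicate 3 arrays highest, with list means of 1.71 and 1.15 in these arrays against -0.82 to -0.65. Over all probe sets 12.2% passed and 13.5% had this order, the shares against which the counts of the other lists here stand too. Cyp2f2, a cytochrome of club cells, and Sftpb, another surfactant protein, had ranges of 4.51 and 3.33. Sympathetic nerve genes stood highest in ApoE-KO replicate 3 (0.96 against -0.32 to -0.09), led by Dbh and Th, enzymes of noradrenaline synthesis, and 0 of 7 passed. Of 10 brown fat genes 0 passed; Ucp1, the uncoupling protein, read 9.62, 9.92 and 10.98 in ApoE-KO against 9.01, 10.15 and 9.60 in DKO. Of 9 white fat genes 7 passed and in 0 were both replicate 3 arrays highest. Retn, the hormone resistin, had the widest range of that list (2.16). Arterial smooth muscle genes moved between -0.12 and 0.12, with 3 of 12 passing.

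**Figure D4:**
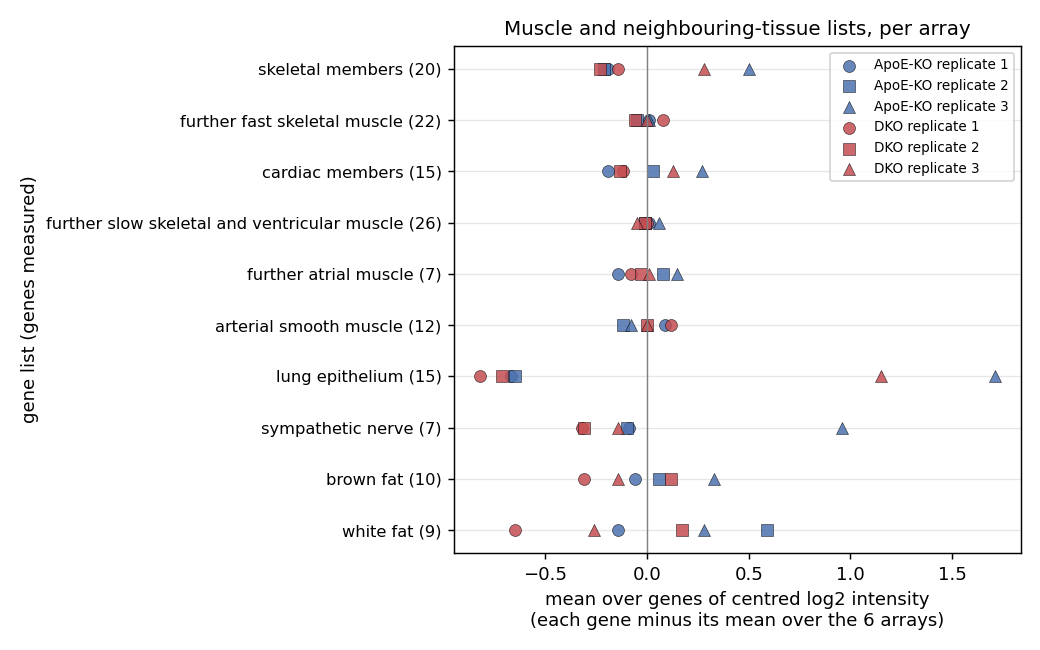
Mean over the genes of each list of the log2 intensity minus each gene's mean over the 6 arrays; the number of genes measured stands beside each list, colours are genotypes and symbols replicate numbers. The skeletal members and lung epithelium have both replicate 3 arrays on the right, while the further fast skeletal list stays between -0.06 and 0.08.

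Among 539 genes outside all these lists with a range of at least 1, the 8 whose levels over the 6 arrays were most like the skeletal mean (by Pearson correlation, as a description) were Bmp5, a bone morphogenetic protein, Cldn18, a claudin of lung and stomach, Cxcl15, a chemokine of lung epithelium, Slc34a2, the phosphate transporter of alveolar cells, Cwc22, a splicing factor, Bpifb1, a secreted airway protein, Chia1, an acidic chitinase, and Scnn1g, a sodium channel subunit. Slc34a2 read 6.54, 6.38 and 11.15 in ApoE-KO against 6.60, 6.61 and 10.15 in DKO, so again only the replicate 3 arrays were high. Most like the cardiac mean were Mir300, Rasgef1a, Tspan13, Cyyr1, S1pr3, a sphingosine phosphate receptor, Mir680-1, Tbx3, a T-box factor of the conduction system, and F630048H11Rik. Tbx3 read 7.58, 7.89 and 8.96 in ApoE-KO against 7.63, 7.85 and 8.39 in DKO. The arrays are the same in every such comparison, so likeness over them carries no test.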

How the data were processed

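RNA from 6 aortas was measured on 1 Affymetrix whole-transcript array each. For 25254 probe sets the authors deposited log2 intensity values; the submitters' processing notes name RMA, Partek and build mm9, without versions. The series text names a batch factor, but no label gives a batch. The sources used here do not say whether a batch effect was removed. Array medians were 8.01 to 8.02 and correlations between arrays 0.983 to 0.995. Of the probe sets 21496 name 1 gene, 1565 several and 2193 none; a gene took its probe set with the highest mean. Entrez identifiers of 21415 of the 21496 matched a RefSeq table of GRCm38.p6.

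All probe sets were tested together with limma 3.58.1 in R 4.3.3 (lmFit, eBayes with trend; two-sided; Benjamini-Hochberg at 0.05), unpaired, with the replicate number as a block, and for the number term. Intervals are 95% intervals. Same-numbered arrays of both groups correlated at 0.600, 0.498 and 0.636 in their deviations from the group means, so the numbers were treated as pairing the arrays, although no label says so. The fits were tried on simulated data with added changes far larger than the class means of DKO minus ApoE-KO. This does not show whether differences of that size would be found. With 3 arrays a group, the smallest exact permutation p is 0.1. The series text counts 3 mice a group; p-values measure the spread between these samples.

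The members and lists were chosen with earlier results of these data known. Text values follow members by role; per list, genes with the widest range or defining genes are named. Further lists gave these counts on the number term, which 12.2% of all probe sets passed: oesophageal and tracheal epithelium 1 of 11, cartilage 2 of 11, thymus 1 of 9, mesothelium 0 of 8 and blood 2 of 4.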

Additional observations from a re-analysis of the deposited data

How the results depend on the processing

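The 0 of 35 muscle genes that passed in DKO minus ApoE-KO stayed at 0 with the replicate block, above the 40th percentile of the mean, after renewed quantile normalization, with median centring, without an intensity trend, with array weights, and without any 1 array. With the block and without 1 replicate number it ran from 0 to 2. Over all probe sets the count was 0 unpaired and 44 with the replicate block; leaving out 1 array or, with the block, 1 number gave 0 to 415, with 8 without DKO replicate 3, and with the block 415, 0 and 48 without number 1, 2 and 3. The skeletal mean of -0.06 ran from -0.22 without DKO replicate 3 to 0.17 without ApoE-KO replicate 3, and the cardiac mean of -0.08 from -0.19 to 0.04. The 14 of 35 genes that passed the number term were 12, 14 and 14 above the 40th percentile, after quantile normalization and with median centring. Chosen after seeing the data, leaving out arrays or numbers gave 4 to 22. Of single arrays, ApoE-KO 2 and 3 left out gave 5 and 7 (1.86% and 7.75% of all probe sets). DKO 1 and 2 left out gave 22 and 6 (11.8% and 2.55%), and both replicate 3 arrays left out gave 4 (10.1%). The cause was not tested. Every member has 1 probe set, so averaging probe sets changed nothing. Above the 40th percentile 19 of the 35 genes remained. The number of arrays limits the precision, and detection calls were not used, so a low level may be background.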
